A study of Mus musculus with 24 samples.

Results

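The early wave described here comprises 177 of the 45319 genes in the count table of mouse Lys-GFP-ER-HoxA9 cells, chosen because their transcripts were briefly more abundant 4 and 8 h after estradiol was taken away. A gene was a member if its mean log2(CPM + 1) over 4 and 8 h lay at least 0.8 above both its 0 h value and its 24 h value and if its mean CPM at 4 or 8 h reached 2, a floor that 10550 genes passed. CPM stands for counts per 1000000 gene counts of the library. Members were thus selected on their measured levels at 0, 4, 8 and 24 h, and these levels are only described below. The calls of 8 h against 4 h use the same libraries and likewise serve as a description.

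Both arms were C57Bl/6 mouse cells, sequenced as poly(A)-selected RNA. The R07 arm had 1 library at each of 12, 36, 72 and 120 h, and the withdrawal arm had 2 libraries at each of 0, 4, 8, 12, 24, 36, 48, 72, 96 and 120 h. All cells came from culture with stem cell factor and 0.5 uM beta-estradiol, and the labels give the same note on estradiol withdrawal for every library, R07 included. R07 is known here only by its code, and the labels say neither whether estradiol was present with it, nor whether the line is 1 clone, nor whether paired libraries came from separate cultures. Spread between libraries may therefore be technical.

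HoxA9 is a homeobox transcription factor that keeps myeloid progenitors dividing and immature. Fused to the hormone-binding domain of the oestrogen receptor, it acts while estradiol is present, and its removal lets such progenitors mature towards neutrophils and macrophages. Genes that respond within hours of a change in culture are often transcription factors, signalling adapters, feedback inhibitors and stress-response enzymes. Members of each kind were found here, but most genes listed for such kinds were not members. Among the members were 1 of 21 feedback regulators of receptor kinases, 2 of 19 heat shock and oxidative stress genes and 5 of 41 myeloid and lineage transcription factors.

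Gene counts per library ran from 36661334 to 49601719, with 0.822 to 2.04% from mitochondrially encoded genes. The members together held 0.160 to 1.22% of gene counts. Progenitor markers, here Kit, Cd34, Flt3, Mpo, Hoxa9 and Lyz2, summed to 7770 to 8000 CPM in the withdrawal libraries at 0 h. Lyz2, the lysozyme gene of the myeloid lineage, was at 0 to 0.646 CPM in every library, and the reason was not tested. Of 6 T and NK cell markers, 5 stayed under 0.5 CPM everywhere. In such bulk RNA, fewer cells of a type and less RNA per cell cannot be told apart. Levels below are CPM on library sizes scaled by TMM (trimmed mean of M-values), with the libraries of column letters A and B in that order.

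Within the first 24 h the members behaved alike by construction, and 173 of 177 had all 4 libraries of 4 and 8 h above all 4 libraries of 0 and 24 h. The mean was higher at 4 h than at 8 h in 82 members and higher at 8 h in 95. The higher of both means ran between 1.89 and 1173 CPM with a median of 14.5 CPM, without correction for gene length. By 12 h a median of 36.2% of the rise was left, and 41 members were at or below their 0 h mean. At 24 h 137 members were below it.

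Past 24 h the name "transient" held for part of the group. The highest of the 10 time means fell at 4 h in 56 members and at 8 h in 30, but at 96 h in 19 and at 120 h in 71, with the remaining 1 at 12 h. At 120 h, 87 members exceeded their early maximum, 65 were below their 0 h mean and 38 were under 0.5 CPM. The smaller of the 2 margins ran from 0.80 to 2.95 with a median of 1.04, and 0 h set it in 146 members and 24 h in 31. Just inside the limit were Adgrg1 at 0.807 and Ush1g at 0.805, and just outside were Soga1 at 0.799 and Calcoco1 at 0.794. A further 9 genes met the margin and missed the CPM floor, with Tns2 and Hes1 among them.

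**Figure D1:**
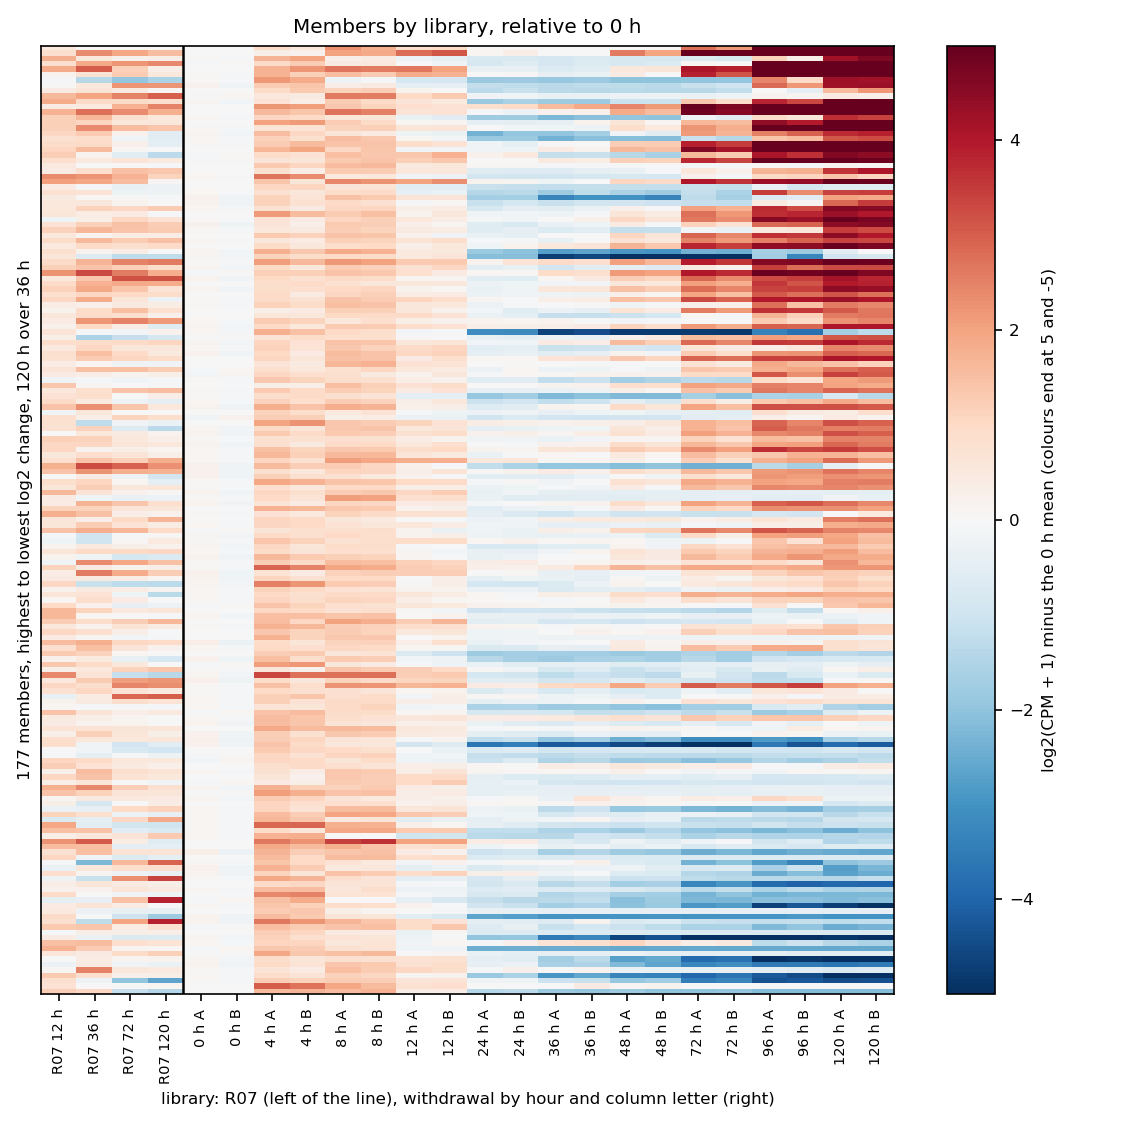
Each of the 177 members is a line and each library a column, R07 left of the vertical line and withdrawal right of it, coloured by log2(CPM + 1) minus the member's 0 h mean. The 4 and 8 h columns are red in nearly all lines by the choice of members, and at 120 h the upper lines are red and the lower lines blue.

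The most extreme members by margin show the shape. Pald1, a phosphatase-domain protein, had CPM values of 3.93 and 3.06 at 0 h, 43.9 and 29.3 at 4 h, 29.4 and 29.4 at 8 h, and 1.41 and 1.39 at 24 h. Gfi1b, a zinc-finger repressor that directs erythroid and megakaryocytic genes, had CPM values of 2.74 and 2.56 at 0 h, 21.8 and 16.3 at 4 h, 37.9 and 45.1 at 8 h, and 3.75 and 3.90 at 24 h. F2r, the thrombin receptor, had CPM values of 1.42 and 1.2 at 0 h, 16.0 and 16.4 at 4 h, 7.0 and 6.63 at 8 h, and 0.741 and 0.527 at 24 h. In each of the 3 genes the early libraries lay several-fold above those of 0 and 24 h, with no overlap. Jun, a subunit of the AP-1 transcription factor, had CPM values of 1.06 and 1.01 at 0 h, 7.16 and 7.84 at 4 h, 3.91 and 2.96 at 8 h, and 0.440 and 0.464 at 24 h. Of 176 protein-coding members and 1 lincRNA, 126 were sorted into 10 groups by known role after the members were seen, and 51 were left unsorted.

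Promoters were read because the members rise and fall together over the first day. RefSeq windows of 300 bases, 250 before to 50 after the start, were at hand for 136 of the 177 members, and 12 motifs were searched on both strands. A gene with several windows, as 21.3% of these members and 20% of the genes tested had, counts once if any window holds the motif. The antioxidant response element TGACNNNGC, the site of the NRF2 stress factor, was found for 37 of the 136 members (27.2%), against 17.1% of all genes tested with a window and 14% of all genes with a window. The AP-1 motif TGANTCA was in 15 (11%), against 6.59% and 8.97%. The ETS motif CCGGAAG was in 9 (6.62%), against 20.1% and 9.93%. These motifs can share bases, as AP-1 and the antioxidant element do in F2r. The hypoxia motif ACGTG was in 31 (22.8%, against 28.9% and 21.8%) and the E-box CACGTG, which contains it, in 12 (8.82%, against 11.6% and 8.09%). The element TGACATCA was in 5 (3.68%, against 2.19% and 4.18%), the CArG box in 4 (2.94%, against 1.5% and 1.81%) and the interferon element ISRE in 2 (1.47%, against 4.08% and 3.99%). The cyclic AMP element TGACGTCA, the oestrogen response element, the SMAD element GTCTAGAC and the C/EBP motif TTGCGCAA were in none of the 136, against 3.57%, 0.0197%, 0.295% and 0.315% of the genes tested. A match, or its absence, describes these letters in this window only. Stretches of 120 to 220 bases of the windows of 5 members, all before the start, are printed below from GRCm38.p6 in lower case, with matches to AP-1, the antioxidant element and TGACATCA in capitals, because Jun is the AP-1 subunit among the members, F2r carries both motifs on shared bases, Osgin1 and Srxn1 are oxidative-stress genes, and Adgrg1 has 2 AP-1 matches. In Jun (chr4:95052223-95052342, minus strand) the capitals mark TGACATCA, an element known from this promoter. In F2r (chr13:95618467-95618686, minus strand) they mark the overlapping AP-1 and antioxidant matches. In Osgin1 (chr8:119436997-119437146, plus strand), Srxn1 (chr2:152105404-152105523, plus strand) and Adgrg1 (chr8:94984249-94984398, plus strand) they mark AP-1. Srxn1 also has an antioxidant match past its start, outside the printed stretch.
Jun: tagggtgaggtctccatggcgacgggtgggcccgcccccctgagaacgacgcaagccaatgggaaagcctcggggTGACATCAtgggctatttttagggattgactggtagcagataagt
F2r: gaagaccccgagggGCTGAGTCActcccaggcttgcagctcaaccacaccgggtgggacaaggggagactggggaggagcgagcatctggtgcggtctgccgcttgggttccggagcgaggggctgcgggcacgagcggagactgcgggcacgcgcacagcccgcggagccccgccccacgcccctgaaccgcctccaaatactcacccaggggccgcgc
Osgin1: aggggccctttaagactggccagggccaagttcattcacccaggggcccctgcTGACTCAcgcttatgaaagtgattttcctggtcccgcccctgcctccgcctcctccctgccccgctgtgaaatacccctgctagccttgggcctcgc
Srxn1: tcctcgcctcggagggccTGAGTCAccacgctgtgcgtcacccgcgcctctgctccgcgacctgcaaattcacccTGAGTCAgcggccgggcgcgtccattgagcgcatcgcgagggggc
Adgrg1: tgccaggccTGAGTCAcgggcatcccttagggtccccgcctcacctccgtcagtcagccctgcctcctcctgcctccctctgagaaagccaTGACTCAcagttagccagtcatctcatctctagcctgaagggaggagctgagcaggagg

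The order within the wave is described by comparing 8 h with 4 h. The same libraries chose the members, by the mean over both times and by a CPM floor that either time could meet, so the counts and values of this comparison are a description. At 8 h, 40 members were higher (22.6%; 7.35% of 14615 genes tested) and 50 lower (28.2%; 5.04%), by edgeR's quasi-likelihood test at a Benjamini-Hochberg adjusted p under 0.05. The other 87 were not called, and nothing is read from these shares against all genes. The floor was met at both times by 157 members, of which 28 were higher and 45 lower at 8 h, at 8 h alone by 14 (12 higher) and at 4 h alone by 6 (5 lower). The median log2 change was 0.01 over members and 0.00 over all genes tested. Without either of the 8 h libraries, A or B, 54 members were called. With library sizes alone in place of TMM the split among members was 46 higher and 43 lower, and the share of higher calls among all genes called was 72.7% in place of 59.3%.

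Among the members higher at 8 h, Eya2, a transcriptional coactivator with phosphatase activity, had 6.46 and 6.32 CPM at 8 h, against 0.783 and 0.722 CPM at 4 h. Its log2 change was 3.06 ± 0.26 (SE). Lsp1, an actin-binding protein of leukocytes, had 6.66 and 6.06 CPM at 8 h, against 1.38 and 1.23 CPM at 4 h (log2 change 2.26 ± 0.26). The times did not overlap in either gene. Gfi1b was also called higher (log2 change 1.11 ± 0.16), as was Bmf, a BH3-only promoter of cell death, at 9.57 and 8.35 CPM at 8 h, against 4.06 and 3.27 CPM at 4 h (1.27 ± 0.16). Il1r2, the decoy receptor for interleukin-1, and Cyp4f18, which hydroxylates leukotriene B4, were also called higher, by 1.15 ± 0.19 and 1.36 ± 0.19. Eya2, Lsp1 and Il1r2 met the CPM floor at 8 h alone and so had to be higher there.

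Among the members lower at 8 h, Cmklr1, the chemerin receptor, had 2.73 and 3.08 CPM at 8 h, against 18.8 and 14.8 CPM at 4 h. Its log2 change was -2.56 ± 0.30. Chst1, a keratan sulphate sulfotransferase, had 1.83 and 1.88 CPM at 8 h, against 11.6 and 9.17 CPM at 4 h (-2.5 ± 0.20). Both genes were already most of the way down by 8 h, with no overlap between times. Of 7 members of TGF-beta family signalling, 4 were lower at 8 h and 1 was higher, against 28.2% and 22.6% of all members. Pmepa1, a target that dampens SMAD signals, had 7.36 and 7.34 CPM at 8 h, against 26.1 and 27.5 CPM at 4 h (-1.89 ± 0.18). Ski and Skil, corepressors of SMAD proteins, changed by -0.52 ± 0.09 and -0.85 ± 0.15, and Ldlrad4, another inhibitor of the pathway, by -0.88 ± 0.15. Eng, a co-receptor for the family, went the other way with 3.51 and 2.81 CPM at 8 h, against 1.48 and 1.15 CPM at 4 h (1.25 ± 0.23), and met the CPM floor at 8 h alone. F2r (-1.27 ± 0.17), Jun (-1.14 ± 0.23) and Irf8, a factor of the monocyte and dendritic lineages (-0.45 ± 0.10), were also called lower.

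The wider AP-1, ATF and CREB family held 2 members, Jun and Jund, among 25 genes, of which 3 were higher and 6 lower at 8 h with a median log2 change of -0.15. Among all genes tested, 7.35% were higher and 5.04% lower at 8 h. Of 16 tested genes of heat shock and oxidative stress, 6 were lower at 8 h, and 2 of the list, Srxn1 and Nqo1, were members. Of 21 feedback regulators of receptor kinases, Dusp5, a phosphatase of nuclear ERK, was the 1 member, and 7 of the 21 were lower at 8 h (median log2 change -0.31). Flt3, a receptor kinase of progenitors and dendritic cells, had 132 to 139 CPM at 8 h, against 412 to 452 CPM at 4 h, and its part in the members' order was not tested. The other 5 dendritic cell markers summed to 3.89 to 3.93 CPM at 8 h, against 3.22 to 3.4 CPM at 4 h, with Xcr1 and Siglech under 0.5 CPM in every library.

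**Figure D2:**
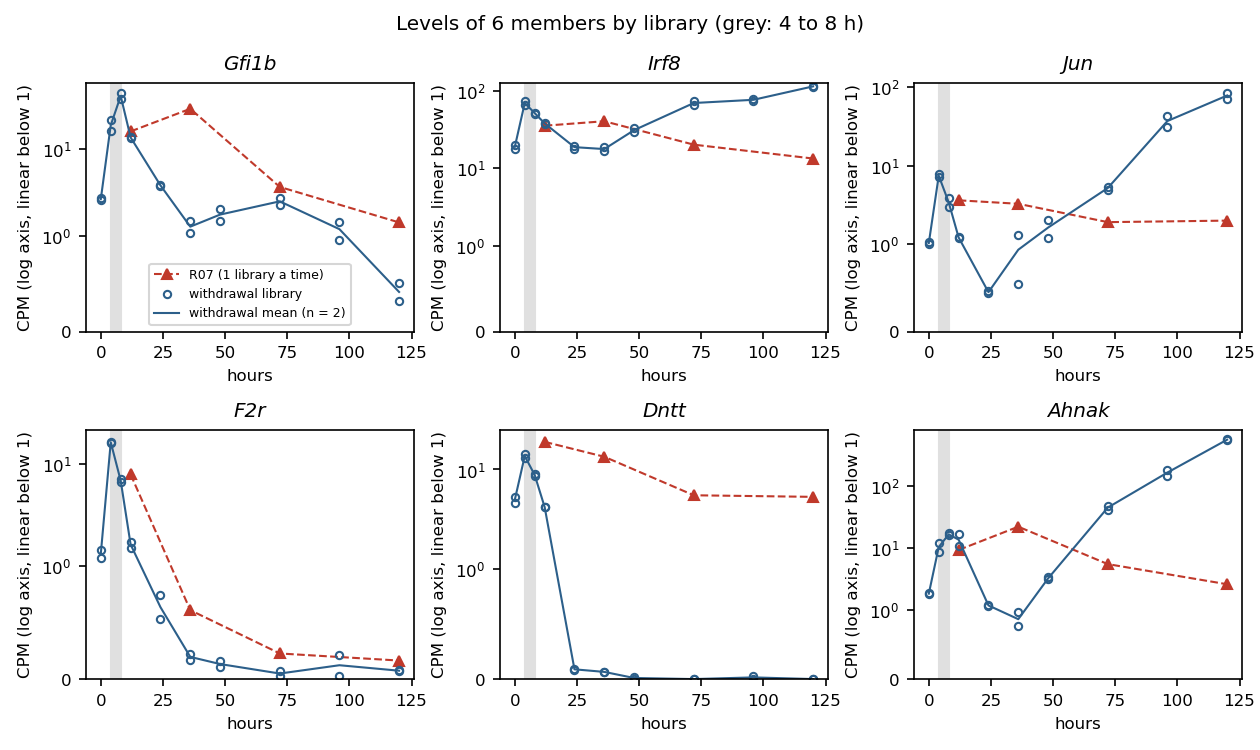
CPM by library against hours for 6 members on a log axis that is linear below 1 CPM, with R07 as red triangles and withdrawal as blue circles joined at the mean. Each gene peaks in the grey band at 4 to 8 h, after which Ahnak, Jun and Irf8 climb to 120 h in the withdrawal libraries and F2r, Dntt and Gfi1b stay low.

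Whether the members went on falling was asked with 36 h against 12 h, times that the choice did not use although it used the times on either side of 12 h. At 36 h, 140 members were lower (79.1%; 16.5% of genes tested) and 5 higher (2.82%; 15.1%), and 32 were not called (edgeR, adjusted p under 0.05). The median log2 change was -1.46 over members, also with the 3 members whose 36 h libraries held no count set at a floor of 3 counts over the group, against 0.00 over all genes tested. Each of the 10 role groups had more members lower than higher.

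The fall was large among secreted and lymphoid-type members. Angptl2, a secreted angiopoietin-like protein, had 1.56 and 1.86 CPM at 36 h, against 55.4 and 58.1 CPM at 12 h (log2 change -5.05 ± 0.17, adjusted p = 2.8e-14, edgeR). Mmp14, a membrane-bound matrix metalloproteinase, had 1.25 and 1.48 CPM at 36 h, against 80.1 and 89.6 CPM at 12 h (-5.95 ± 0.34). Of 11 secreted and matrix members 10 were lower, against 79.1% of all members, and 1, Clu, was higher. Dntt, the polymerase that adds bases to antigen-receptor junctions, had 0.0659 and 0.0643 CPM at 36 h, against 4.18 and 4.20 CPM at 12 h (-5.94 ± 0.30). Nlrc3, an inhibitory NOD-like receptor, had 0.198 and 0.321 CPM at 36 h, against 10.5 and 10.5 CPM at 12 h (-5.31 ± 0.29). Lat, the adapter of the T cell receptor, had 0.352 and 0.343 CPM at 36 h, against 4.84 and 6.76 CPM at 12 h (-4.05 ± 0.30). In these 3 genes the 36 h libraries were near the lower limit of detection. Of 8 lymphoid-type members 7 were lower, also against 79.1% of all members. Markers of B cells summed to 41.4 to 45.5 CPM at 36 h, against 247 to 297 CPM at 12 h, and their part in these falls was not tested.

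Eya2 had no count at 36 h, against 1.48 and 2.12 CPM at 12 h, and was at least 55.0-fold lower at 36 h against a floor of 3 counts over the group. Gfi1b had 1.47 and 1.07 CPM at 36 h, against 13.6 and 13.9 CPM at 12 h (log2 change -3.43 ± 0.21). Tcf7, the lymphoid factor TCF1, had 11.3 and 10.7 CPM at 36 h, against 38.5 and 38.8 CPM at 12 h (-1.81 ± 0.10). The transcription regulators thus differed in size of fall, and Jun and Id2 were not called. The 5 members higher at 36 h were Lgals3, Clu, Scpep1, Rab11fip5 and Hid1. Lgals3, the lectin galectin-3 of macrophages, had 4.75 and 6.25 CPM at 36 h, against 2.5 and 2.17 CPM at 12 h (1.23 ± 0.19). Clu, the secreted chaperone clusterin, had 4.50 and 4.91 CPM at 36 h, against 2.03 and 2.68 CPM at 12 h (1.00 ± 0.22). Rab11fip5 was not called without the 12 h library B (adjusted p = 0.0598, range over alternatives 0.00149 to 0.0598), and Hid1 was not called without 12 h A (0.172) or 36 h B (0.203, range 0.0158 to 0.203).

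Late in the course, 120 h was compared with 36 h, neither of which entered the choice. The choice required a low level at 24 h, the time before 36 h, and so may favour higher calls at 120 h. At 120 h, 123 members were higher (69.5%; 38.0% of genes tested) and 32 lower (18.1%; 39.8%), with 22 not called, in a transcriptome of which 77.8% was called (edgeR, adjusted p under 0.05). The median log2 change was 2.34 over members, against -0.08 over all genes tested. With the 6 members that lacked counts in a group set at their bound and 5 members near the floor left out, it was 2.39. With library sizes alone the median of all genes moved by -0.38, the member split was 118 higher and 34 lower, and the share of higher calls among all called was 37.3% in place of 48.8%. Macrophage and monocyte markers summed to 5570 to 5760 CPM at 120 h, against 69.4 to 72.2 CPM at 36 h, and their part in the members' rise was not tested.

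Cytoskeletal and signalling members were mostly higher at 120 h, as were 69.5% of all members. Their median log2 changes were 2.64 and 2.27, against 2.34 over members and 3.48 in transporters and channels, the highest of the groups. Lsp1 had 1470 and 1150 CPM at 120 h, against 0.901 and 0.921 CPM at 36 h (log2 change 10.52 ± 0.28, adjusted p = 3.0e-17, edgeR). Ahnak, a giant scaffold protein beneath the plasma membrane, had 553 and 538 CPM at 120 h, against 0.769 and 0.964 CPM at 36 h (9.33 ± 0.24). Both were far above their early maximum. Of 17 cytoskeleton and adhesion members 15 were higher and 1 was lower. Of 14 members of GTPase, kinase and phosphoinositide signalling 11 were higher and 1 lower.

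Surface receptors and transcription regulators were divided, as were all members, of which 69.5% were higher and 18.1% lower. Of 20 surface receptors 12 were higher and 6 lower. Cmklr1 had 84.0 and 80.8 CPM at 120 h, against 0.176 and 0.236 CPM at 36 h (8.66 ± 0.43), and Il6ra, the interleukin-6 receptor, had 427 and 350 CPM at 120 h, against 24.8 and 26.4 CPM at 36 h (3.96 ± 0.14). Of 12 transcription regulators 8 were higher and 4 lower. Jun had 86.0 and 71.4 CPM at 120 h, against 0.549 and 1.33 CPM at 36 h (6.42 ± 0.26), Irf5 had 316 and 302 CPM at 120 h, against 7.96 and 9.23 CPM at 36 h (5.21 ± 0.18), and Id2, an inhibitor of helix-loop-helix factors, had 391 and 290 CPM at 120 h, against 5.16 and 4.22 CPM at 36 h (6.22 ± 0.23). In the wider lists, 20 of 25 genes of the AP-1, ATF and CREB family and 39 of 39 interferon-stimulated genes were higher at 120 h (medians 2.02 and 10.30). Of 39 tested myeloid and lineage transcription factors, a list that holds Irf5 and Id2, 19 were higher and 18 lower (median 0.22). Among all genes tested, 38.0% were higher and 39.8% lower. Oasl1 is the interferon-stimulated gene among the members, with 265 and 238 CPM at 120 h, against 0.176 and 0.300 CPM at 36 h (10.07 ± 0.33). The libraries at 120 h and 36 h did not overlap in any gene named in this paragraph.

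Of 11 stress and growth-arrest members 9 were higher at 120 h, against 69.5% of all members. Bmf had 106 and 85.8 CPM at 120 h, against 0.901 and 0.942 CPM at 36 h (6.74 ± 0.19). Osgin1, an oxidative-stress-induced growth inhibitor, had 49.8 and 39.4 CPM at 120 h, against 1.12 and 1.41 CPM at 36 h (5.17 ± 0.26). Srxn1, which repairs over-oxidised peroxiredoxins, had 55.6 and 70.4 CPM at 120 h, against 22.7 and 22.1 CPM at 36 h (1.53 ± 0.17). Both oxidative-stress genes carry the AP-1 matches printed above. Ddit4, an inhibitor of mTORC1, was the lower member of the group, at 4.36 and 4.39 CPM at 120 h, against 4.07 and 9.10 CPM at 36 h (-0.55 ± 0.24, adjusted p = 0.045, edgeR). These libraries overlapped, and the change was 0.13 without the 36 h library B (adjusted p = 0.555, range over alternatives 3.86e-05 to 0.555).

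The members that fell further at 120 h were the other end of the range. Tcf7 had 0.162 and 0.201 CPM at 120 h, against 11.3 and 10.7 CPM at 36 h (-5.88 ± 0.20, adjusted p = 6.9e-16, edgeR). Qrfp, the precursor of a neuropeptide, had 0.0808 and 0.0671 CPM at 120 h, against 3.71 and 4.93 CPM at 36 h (-5.76 ± 0.37). Adgrg1, the adhesion receptor GPR56 of progenitor cells, had 7.49 and 7.75 CPM at 120 h, against 202 and 264 CPM at 36 h (-4.90 ± 0.19). All 3 had already been lower at 36 h than at 12 h. Atp2b4, a calcium pump of the plasma membrane, had 3.96 and 3.02 CPM at 120 h, against 39.3 and 43.3 CPM at 36 h (-3.51 ± 0.16). Aqp1, a water channel, held no count at 120 h, against 0.264 and 0.193 CPM at 36 h, and was at least 5.08-fold lower. Clu fell by 4.34 on the log2 scale (SE 0.34) and Pmepa1 by 3.36 (SE 0.50). Progenitor markers summed to 447 to 463 CPM at 120 h, against 11300 to 12300 CPM at 36 h, and their part in these falls was not tested. Most of the 36 h sum was Mpo, at 10356.5 and 11277.2 CPM on library sizes without TMM.

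The timing within the early wave and the late change come from separate libraries. Of the 40 members higher at 8 h than at 4 h, 31 were higher and 6 lower at 120 h than at 36 h. Of the 50 members lower at 8 h, 28 were higher and 14 lower at 120 h. Those counts describe the members, and no test was made of the difference between them.

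**Figure D3:**
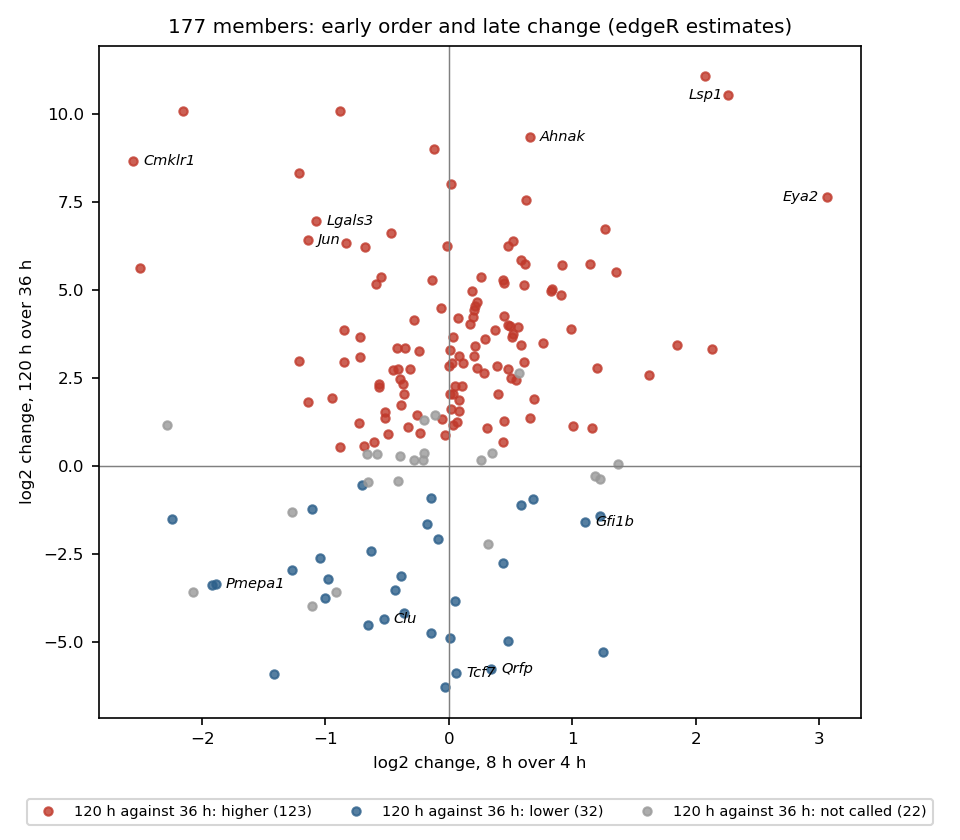
Each point is a member, with its log2 change at 8 h over 4 h on the horizontal axis and at 120 h over 36 h on the vertical axis, coloured by the late call. The 123 red points lie above 0 and the 32 blue points below it, on both sides of the vertical line.

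**Figure D4:**
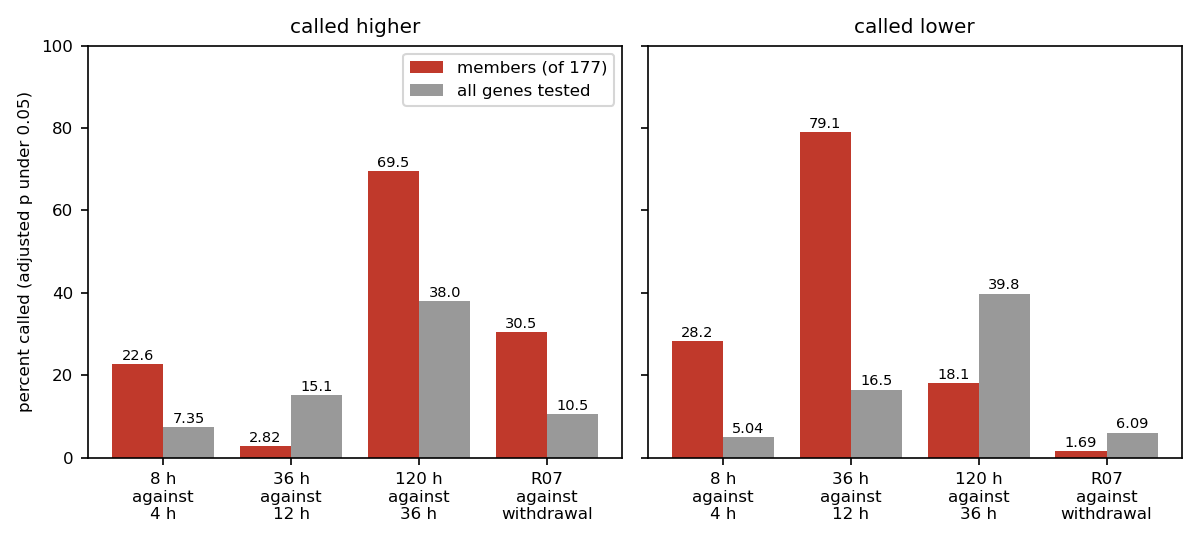
Percent of the 177 members (red) and of all genes tested (grey) called higher (left panel) or lower (right panel) in each comparison; the libraries of 8 h against 4 h also chose the members. The members stand above the background among lower calls at 36 h (79.1 against 16.5%) and among higher calls at 120 h (69.5 against 38.0%) and in R07 (30.5 against 10.5%). The choice of members may favour each of these.

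R07 was compared with withdrawal at matched times in 12 libraries that the choice did not use, with time as a factor. The choice required a low level at 24 h of withdrawal, next to 36 h, and so may favour higher values in R07 at 36 h. Of 174 members tested, 54 were higher in R07 (30.5% of 177; 10.5% of 13641 genes tested) and 3 lower (1.69%; 6.09%), and 117 were not called (edgeR, adjusted p under 0.05). The median log2 difference was 0.66 over members, against 0.06 over all genes. Dok7, Ackr3 and Ush1g had counts too low to be tested. The number called was 88 (76 higher, 12 lower) with DESeq2 and 90 (77 and 13) with all 20 withdrawal libraries in the fit, but 22 without the R07 library at 72 h and 35 without either withdrawal library at 72 h, A or B. With library sizes alone the median of all genes moved by 0.22, and 64 members were higher and 2 lower, while the share of higher calls among all called was 78.6% in place of 63.3%.

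The difference changed with time. The R07 library lay above both withdrawal libraries in 109 members at 12 h (39.3% of genes tested), in 156 at 36 h (44.5%), in 104 at 72 h (44.6%) and in 72 at 120 h (51.7%). It lay below both in 49 (41.6%), 17 (46.4%), 62 (46.0%) and 100 members (43.3%) at the same times. The median difference in log2(CPM + 1) over members was 0.22, 1.31, 0.33 and -0.82, in that order of time. The members were thus mostly higher in R07 at 36 h and mostly lower at 120 h, where the withdrawal libraries had their late rise. Macrophage and monocyte markers summed to 70.6 CPM in R07 at 120 h, against 5570 to 5760 CPM in withdrawal, and to 61.7 CPM in R07 at 36 h, against 69.4 to 72.2 CPM. Progenitor markers summed to 8610 CPM in R07 at 120 h, against 447 to 463 CPM in withdrawal. At 36 h they summed to 13800 CPM in R07, against 11300 to 12300 CPM. This 36 h sum was mostly Mpo, at 10449.6 CPM in R07, against 10356.5 and 11277.2 CPM, on library sizes without TMM. On that scale Kit was at 987 CPM in R07 at 36 h, against 386 and 405 CPM in withdrawal. Cd34 was at 3140 CPM, against 378 and 402 CPM, and Flt3 at 492 CPM, against 4.20 and 4.16 CPM. Hoxa9 went the other way, at 72.5 CPM in R07, against 222 and 231 CPM. The part of macrophages, monocytes and progenitors in the reversal was not tested. At all 4 times together, 46 members were higher in R07 (10.6%) and 4 lower (8.39%). With 1 R07 library a time, none of these differences at a given hour was tested.

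**Figure D5:**
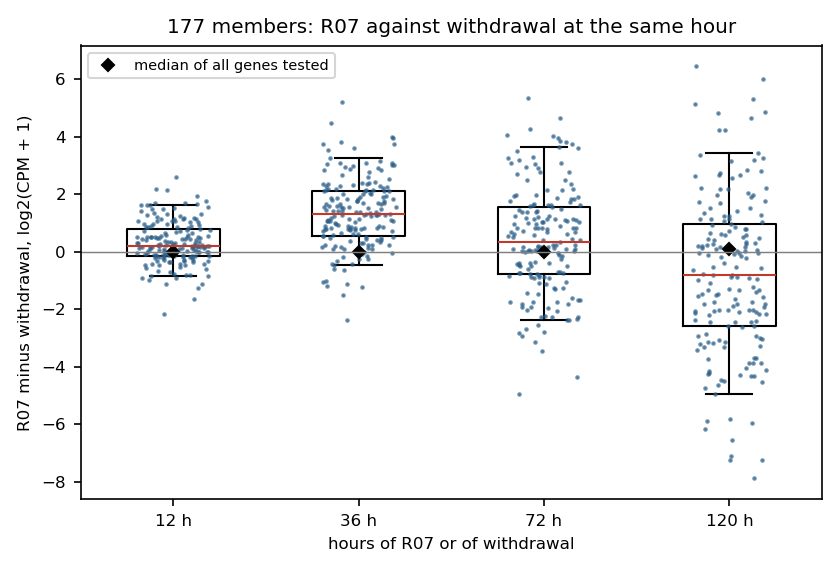
R07 minus withdrawal in log2(CPM + 1) at each hour, 1 point per member, with boxes for the quartiles, whiskers for the central 90% and diamonds for the median of all genes tested. The red median line of the members is at 1.31 at 36 h and at -0.82 at 120 h.

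Secreted and lymphoid-type members led the difference, with 8 of 11 and 6 of 8 higher in R07. Dntt had 19.0, 13.4, 5.50 and 5.30 CPM in R07 at 12, 36, 72 and 120 h. In the withdrawal libraries it was at 4.18 and 4.20 at 12 h, at 0.0659 and 0.0643 at 36 h, and had no count at 72 or 120 h. R07 was above withdrawal at every hour (log2 difference 7.03 ± 1.03, adjusted p = 0.0034, edgeR, a fitted value that depends on the prior count where libraries were at 0). Adamtsl2, a secreted glycoprotein of the matrix, had 2.71, 2.07, 1.15 and 1.10 CPM in R07, against at most 0.821 CPM in a withdrawal library at the same hours (4.34 ± 0.55). Angptl2 had 96.6, 59, 55.9 and 71.2 CPM in R07, against 55.4 and 58.1 in withdrawal at 12 h, 1.56 and 1.86 at 36 h, 1.30 and 1.21 at 72 h, and 18.3 and 24.1 at 120 h (3.77 ± 0.76). The gap was narrowest at 12 h in Angptl2. B cell markers summed to 272 to 513 CPM in R07, against 41.4 to 297 CPM in the matched withdrawal libraries, and Flt3 was at 449 to 938 CPM in R07, against 4.16 to 55.3 CPM. The dendritic cell markers other than Flt3 summed to 8.12 to 34.1 CPM in R07, against 0.659 to 123 CPM. Their part in the members' difference was not tested.

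Among all members 30.5% were higher in R07 and 1.69% lower. Of 20 surface receptors 6 were higher and 1 lower. Of 17 cytoskeleton and adhesion members 3 were higher and 1 lower (median log2 difference -0.08), and of 11 transporters and channels 2 were higher. F2r had 7.84, 0.608, 0.226 and 0.163 CPM in R07 at 12, 36, 72 and 120 h. In withdrawal its CPM values were 1.72 and 1.5 at 12 h, 0.220 and 0.171 at 36 h, 0.0736 and 0.0243 at 72 h, and 0.0808 and 0.0671 at 120 h (log2 difference 1.88 ± 0.27, adjusted p = 0.0031, edgeR). F2r therefore declined in both arms, and R07 was the higher at each hour. Tns1, a focal-adhesion protein, had 20, 58.1, 46.6 and 29.1 CPM in R07, against 0.146 to 6.37 CPM in withdrawal (5.42 ± 0.99). Aqp1 had 9.64, 8.38, 1.04 and 0.654 CPM in R07, against 0 to 4.93 CPM in withdrawal (3.68 ± 0.70). Scrn1, a secernin, had 14.7, 7.02, 2.90 and 1.35 CPM in R07, against 0 to 4.60 CPM in withdrawal (6.29 ± 0.99). Camk2n1, an inhibitor of CaM kinase II, and Mgarp, a mitochondrial protein, differed by 3.02 ± 0.39 and 4.25 ± 0.62. Dntt, Adamtsl2, F2r, Tns1, Aqp1, Scrn1, Camk2n1 and Mgarp are the 8 named members of 27 called that kept the call in all 12 fits with 1 library left out.

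A further 9 named members lost the call only without the R07 library at 72 h, with adjusted p between 0.0505 and 0.0774 then and between 2.69e-10 and 0.0774 over all alternatives. They were Acsf2, Angptl2, Atp2b4, Ephb2, Eya2, Lat, Lax1, Pmepa1 and Qrfp. Ephb2, an ephrin-binding receptor kinase, had 43.6, 25.7, 19.7 and 20 CPM in R07, against 27.3 and 30.4 CPM at 12 h and 0.0671 to 2.57 CPM later in withdrawal (5.41 ± 1.08). Qrfp had 86.4, 60.7, 42.0 and 42.2 CPM in R07, against 37.8 and 39.5 CPM at 12 h and 0.0671 to 4.93 CPM later in withdrawal (4.84 ± 0.94). In both genes the withdrawal libraries dropped far below R07 after 12 h. Eya2 had 2.79, 3.94, 5.99 and 8.92 CPM in R07, against 0 to 2.12 CPM in withdrawal (5.29 ± 1.13). Of the members of TGF-beta family signalling 2 were higher, Pmepa1 (3.32 ± 0.66) and Ltbp3, which anchors latent TGF-beta (2.20 ± 0.49), and Skil was lower (-1.64 ± 0.46). At 12 h Ltbp3 went the other way, with 11.8 CPM in R07, against 17.7 and 17.8 CPM in withdrawal. Skil overlapped at 12 h, with 27.9 CPM in R07, against 35.6 and 27.2 CPM in withdrawal. Both calls thus rest on the later hours.

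The lower members were S1pr4, a sphingosine-1-phosphate receptor, Fmnl3, a formin that elongates actin filaments, and Skil. S1pr4 had 8.19, 4.07, 8.17 and 9.17 CPM in R07, against 10.0 and 11.3 in withdrawal at 12 h, 6.55 and 6.81 at 36 h, 18.0 and 11 at 72 h, and 36.6 and 26.0 at 120 h (-0.88 ± 0.25, adjusted p = 0.043, edgeR). R07 was below both withdrawal libraries at each hour, but the call was lost in 11 of 12 fits with 1 library left out. Fmnl3 lost its call in 10 of 12. Several members with late levels of their own in R07 were not called. Avil, the actin-binding protein advillin, had 3.46, 0.0629, 9.19 and 37.2 CPM in R07, against 0.0808 to 3.89 CPM in withdrawal (4.44 ± 2.02, adjusted p = 0.16, edgeR). Aldh1l2, a mitochondrial enzyme of folate metabolism, had 1.19, 0.210, 11.7 and 26.4 CPM in R07, against 0 to 0.990 CPM in withdrawal (5.26 ± 1.98, adjusted p = 0.099, edgeR). In both genes R07 was below both withdrawal libraries at 36 h and far above them at 72 and 120 h.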

How the data were processed

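Poly(A) RNA was sequenced with a strand-preserving kit. The deposited table holds the authors' raw counts, whole numbers of reads per gene and library. Per the submitters' processing notes, STAR 2.4.2a, Picard and mm10 were used; the counting program, strand setting and annotation are not given in the sources used here, so reads of overlapping genes may be mixed. The table has 4 lines that name no gene; ambiguous, multimapping, outside-gene and unmapped reads were 1.08 to 1.25%, 6.23 to 8.72%, 3.88 to 6.48% and 1.53 to 2.29% of reads and were left out. Symbols came from GENCODE M21 (44671 identifiers matched, all 177 members among them).

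Columns name arm, hour and letter, but no source ties a letter to a replicate number. Members were chosen on plain CPM with a pseudocount of 1; printed levels use TMM-scaled library sizes (factors 0.770 to 1.13). Tests used edgeR 4.0.16 in R 4.3.3: filterByExpr, quasi-likelihood fits and p-values adjusted by Benjamini-Hochberg across the tested genes, called under 0.05. All 20 withdrawal libraries with time as a factor gave 8 h against 4 h, 36 h against 12 h and 120 h against 36 h (14615 genes, all 177 members); R07 was fitted with the 8 matched withdrawal libraries (13641 genes, 174 members). The SE is the log2 change divided by the square root of the F statistic. The fits of 36 h against 12 h and of R07 were also run on simulated data with the same spread for every gene and a constant difference. That setting does not cover an R07 difference that changes with time. Alternatives were DESeq2 1.42.0, other scalings and filters, a replicate block, other limits for membership and leaving out libraries.

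The members, gene lists and tests were chosen with earlier results of these data known. Named are the 24 members of largest margin, members of the gene lists, and the 5 highest and 5 lowest called in each comparison whose groups do not overlap, at a mean CPM of at least 2. Ski, Skil, Ldlrad4, Ltbp3, Eng, Dok7 and Ush1g were named after their values were seen. A gene that this rule names is not reported here. Intervals by counting error are not given, since libraries are the unit of error.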

Additional observations from a re-analysis of the deposited data

How the results depend on the processing

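With a margin of 1.2 in place of 0.8, 61 genes were members, and 31 of them were called at 8 h against 4 h, 51 at 36 h against 12 h, 52 at 120 h against 36 h and 22 in R07. Margins of 0.6 and 1.0 gave 343 and 94 members. DESeq2 called 88 members in R07, and all 20 withdrawal libraries in the fit 90. Leaving out 1 library in turn gave 144 to 221 members, 54 to 77 called at 8 h, 122 to 134 at 36 h, 144 to 152 at 120 h and 22 to 77 in R07. The other alternatives for these counts stayed within 1.5 times, and none turned the direction of a member called in both fits. Deviations from the time means of same-lettered libraries correlated at -0.16 to 0.21 over 45 pairs of times (7 over 0.1), so the letters were not taken as pairs. With a replicate block 94 members were called at 8 h, 147 at 36 h and 153 at 120 h; no paired analysis was possible for R07 because it has 1 library a time. Of the named members' tests under alternatives, 2923 kept their side of the threshold, 209 lost a call, 96 gained one and 2 turned direction, both at 120 h against 36 h without the 36 h library B: Ddit4 (log2 changes of -1.02 to 0.13 with 1 library left out) and Ndufa4l2 (-6.86 to 0.00, with no count in the libraries left). The cause was not tested. With 2 libraries a time and 1 in R07, levels under about 0.5 CPM rest on few counts, and many R07 calls rest on single libraries.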

Other observations

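Further groups are given here beside the shares of all members. Of 15 members of metabolism and mitochondria, 5 were higher and 6 lower at 8 h than at 4 h (22.6% and 28.2% of all members; edgeR, adjusted p under 0.05). At 36 h 11 were lower than at 12 h (79.1% of all members). At 120 h 7 were higher and 6 lower than at 36 h (69.5% and 18.1% of all members). Aldoc, a glycolytic aldolase, had 4.49 and 4.15 CPM at 8 h, against 9.48 and 6.97 CPM at 4 h. It was the member with Ddit4 from a list of 34 glycolysis and hypoxia genes. Of that list 13 of 32 tested were lower at 8 h, against 5.04% of all genes tested. At 120 h Aldoc had 5.41 and 5.47 CPM, against 0.923 and 1.99 CPM at 36 h (log2 change 1.94 ± 0.24, SE). Of 11 transporters and channels, 9 were higher at 120 h than at 36 h (69.5% of all members), and Aqp1 and Atp2b4 were lower. The group median was 3.48 on the log2 scale, against 2.34 over all members. Tmem119, a membrane protein known from microglia, had 62.1 and 59.1 CPM at 8 h, against 146 and 117 CPM at 4 h, and 64.6 and 55.5 CPM at 120 h, against 15.1 and 19.8 CPM at 36 h.

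Some gene lists near the early wave held no member. Of 13 oestrogen receptor targets 12 were in the table, none a member, and 6 were abundant enough to test. Lists of 19 NF-kB and inflammatory feedback genes and of 49 cytokines and chemokines also held none. Of their tested genes 18 of 18 and 34 of 35 were higher at 120 h than at 36 h (edgeR, adjusted p under 0.05), against 38.0% of all genes tested. Mamdc2, a secreted matrix member, had 2.42, 2.64, 12.5 and 69.2 CPM in R07 at 12, 36, 72 and 120 h, against 0 to 2.41 CPM in the matched withdrawal libraries, with a log2 difference of 6.21 ± 1.83 (SE, adjusted p = 0.048, edgeR), and this call was lost in 10 of 12 fits with 1 library left out.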
